A study of Oryctolagus cuniculus with 6 samples.

Results

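ATF6, PDIA4, CALR, P4HB, SEL1L and CHAC1 are genes of protein folding and folding stress in the endoplasmic reticulum (ER), and their RNA was followed in rabbit blastocysts that had been vitrified or slowly frozen. The genes were selected on measured values of these arrays, namely log2 treated over control, so what follows describes them and tests nothing about them. All non-control probes that the array files assign to the 6 genes by name, description or accession were taken. They are 18 of 43603 probes and 6 of the 8112 genes with a tested probe, and all 18 passed the filter on dim probes.

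The embryos were New Zealand White rabbit blastocysts of 6 days, and each of the 6 Agilent arrays set a treated RNA extract against a control extract. Vitrified embryos had been cooled in liquid nitrogen after a final solution of 20% dimethyl sulphoxide (DMSO) and 20% ethylene glycol, which solidifies them without ice. Frozen embryos had been brought to 1.5 M DMSO, seeded with ice and cooled at 0.3 °C per minute before liquid nitrogen. Both kinds were then transferred into recipient females and recovered as viable blastocysts, whereas the controls were untreated embryos grown in vivo. Transfer, recovery of viable embryos and cryopreservation therefore differ from the controls together and cannot be told apart. The labels give 3 replicates of each treatment and 3 of the controls, with the same control number on a vitrified and a frozen array. This is read here as controls shared by both comparisons, and their values are therefore set side by side without a correlation between them. The labels do not state whether an extract held 1 embryo or a pool. In replicates 1 and 3 the treated extract was labelled with Cy5 (red), and in replicate 2 the dyes were swapped, so that it was labelled with Cy3 (green).

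Signals were well above background for 44.7% to 58% of probes in green and 64.2% to 74.5% in red, and the number of arrays limits the precision. Vitrified replicate 1 and frozen replicates 1 and 2 shared a slide, and the other 3 arrays shared another. Over all 30763 tested probes the median log2 ratio was 0.01 for vitrified and 0.01 for frozen over control. All 7 measured trophectoderm markers of 11 listed were well above background in all 6 control channels. The same held for 3 of 4 measured epiblast markers, of 7 listed, and 8 of 9 endoderm markers, of 14. It also held for 2 of 4 measured blood markers and 3 of 4 measured uterine markers. Measured markers had already passed the filter on dim probes, so these counts do not identify the tissue. NANOG, SOX2, CDX2 and EOMES were not measured here under a symbol.

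The ER folds proteins that a cell secretes or places in its membranes. Chaperones such as calreticulin hold unfinished glycoproteins, protein disulfide isomerases form and rearrange disulfide bonds, and proteins that fail to fold are pulled back to the cytosol for destruction. When unfolded protein builds up, membrane sensors start the unfolded protein response. The sensor ATF6 is cut in the Golgi, its free part enters the nucleus, and it raises chaperone and degradation genes. Another sensor, PERK (EIF2AK3), slows translation and favours the factor ATF4, which raises genes of amino acid supply and, later, CHAC1. A day 6 blastocyst is a fluid-filled sphere of trophectoderm that encloses the epiblast and the spreading endoderm, and it secretes into its cavity and coats.

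Each probe is a 60-base oligonucleotide, and several of the 18 lie on top of each other, so they are not independent readings of a gene. The sequences below are shown because probes at different places of PDIA4 and SEL1L read differently, and because CHAC1, ATF6 and P4HB rest on a single probe each. They were read from the array files, 5′ to 3′ in the sense of the transcript, and capitals mark the stretch that a probe shares with the other probes of its cluster.
PDIA4, A_04_P007358: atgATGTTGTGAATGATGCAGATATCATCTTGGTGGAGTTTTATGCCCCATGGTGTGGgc
PDIA4, A_04_P081098: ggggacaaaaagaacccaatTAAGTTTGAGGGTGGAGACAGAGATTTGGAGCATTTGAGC
PDIA4, A_04_P081097: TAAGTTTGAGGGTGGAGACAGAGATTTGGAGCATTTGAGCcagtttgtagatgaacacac
SEL1L, A_04_P023862: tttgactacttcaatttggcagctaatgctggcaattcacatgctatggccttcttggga
SEL1L, A_04_P023861: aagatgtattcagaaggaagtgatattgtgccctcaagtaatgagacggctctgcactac
SEL1L, A_04_P094742: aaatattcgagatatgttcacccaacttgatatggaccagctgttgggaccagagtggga
CHAC1, A_04_P078982: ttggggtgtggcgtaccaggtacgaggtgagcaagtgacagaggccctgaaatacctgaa
ATF6, A_04_P090932: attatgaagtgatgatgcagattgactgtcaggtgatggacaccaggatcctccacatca
P4HB, A_04_P028026: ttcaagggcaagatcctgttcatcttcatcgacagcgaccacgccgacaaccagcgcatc

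PDIA4 had 7 probes in 2 clusters. The first cluster holds 5 probes that begin at bases 531 to 536 of their target transcript and share 55 bases, and the second holds 2 probes that begin at bases 1795 and 1815 and share 40. In the coordinates of the array files, whose genome build is not given in the sources used here, the upstream probe A_04_P007358 spans chr7:3013903-3015534 and the downstream probe A_04_P081097 chr7:3022119-3022178, both on the plus strand. The upstream span of 1632 bases for a 60-base probe means that the file places it across an intron, whereas the downstream probe is contiguous within 60 bases. The 3 SEL1L probes begin at bases 1191, 1251 and 2171 and share no stretch of at least 20 bases. They lie at chr20:23839914-23839973, chr20:23839974-23842575 and chr20:23856075-23858247, and the spans of 2602 and 2173 bases again cross introns. CHAC1 was read at chr17:31130090-31130149 and ATF6 at chr13:31095352-31095411, both contiguous and on the minus strand, while the files give no position for P4HB. All 5 CALR probes begin between bases 1794 and 1798, share 56 bases near the end of the transcript and are not printed. At 35% to 36.7% GC they are the least GC-rich of the 18, and the CHAC1 and P4HB probes are the most GC-rich at 55%.

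**Figure D1:**
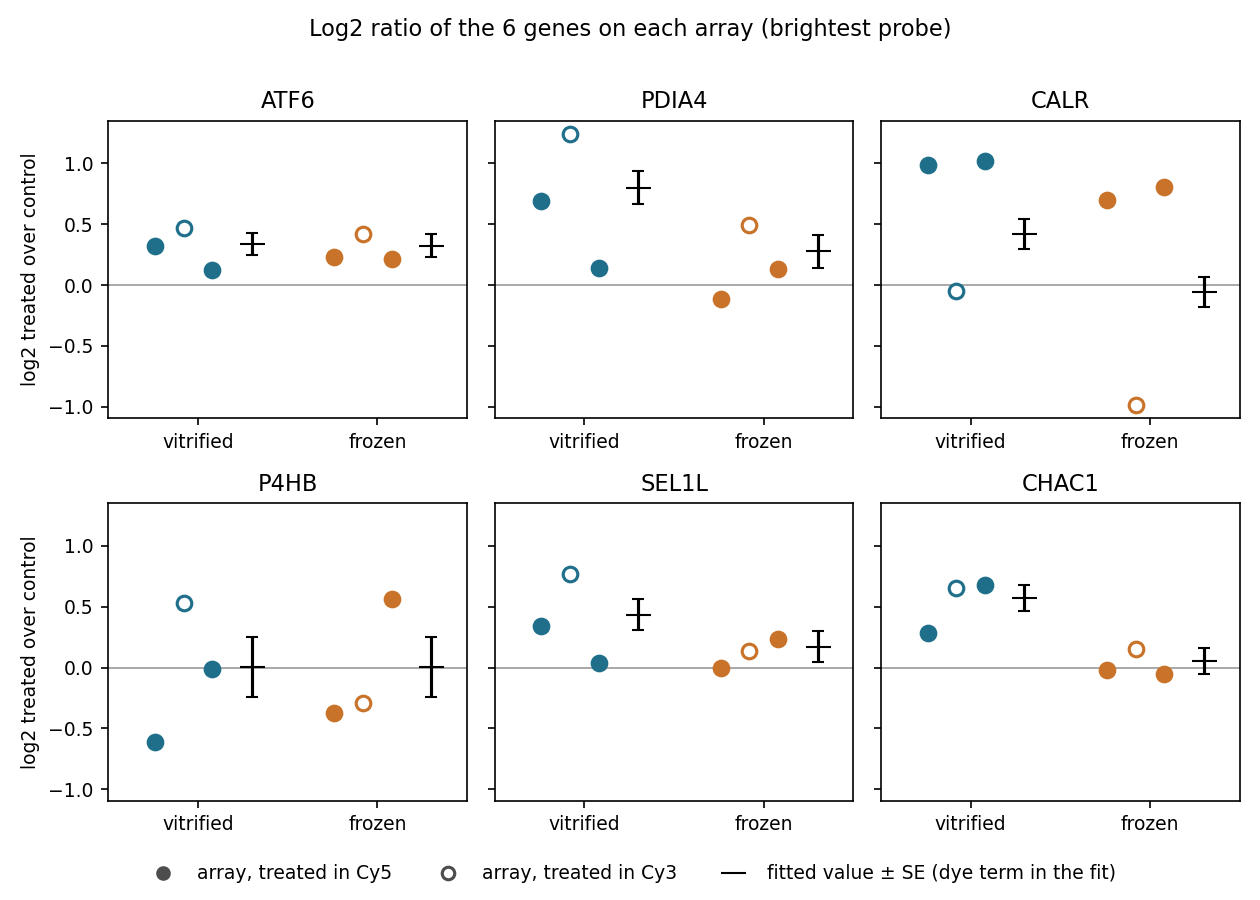
Log2 treated over control of the brightest probe of each gene, with 1 point per array, filled where the treated extract carried Cy5 and open where it carried Cy3. The black marks are fitted values ± SE, with the dye taken into account. For ATF6 all 6 points lie above 0, for CHAC1 the vitrified points lie above all frozen points, and for CALR the open points lie far below the filled ones.

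Where a gene has several probes, it is described by the brightest and the others are given as a range. Of the 18 probes, 0 passed an adjusted p of 0.05 in limma, in vitrified over control, in frozen over control or in the difference between them. The background is 0.0195% of all tested probes called for vitrified, 0.185% for frozen and 0% for the difference. At an unadjusted p below 0.05 the probe counts were 7 of 18 for vitrified, 1 of 18 for frozen and 4 of 18 for the difference, beside 17.4%, 13.2% and 7.54% of all tested probes. Because the genes were selected on these contrasts, nothing is read from those counts.

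The fitted log2 value was above 0 for 6 of 6 genes in vitrified embryos, with a median of 0.43, and for 5 of 6 in frozen embryos, with a median of 0.11. All tested probes had medians of 0.01 and 0.01, and 51.2% and 51.7% of them were above 0. Vitrified minus frozen had a median of 0.37 over the 6 genes and was above 0 for 6 of them, beside 0.02 and 53.3% over all tested probes. These counts include values with no clear sign, namely P4HB at 0.00 in each treatment and in the difference, and ATF6 at 0.01 in the difference. PDIA4, at 0.28 in frozen embryos on its brightest probe, was at -0.01 there as a mean over its probes. Without vitrified replicate 2 the medians were 0.26 for vitrified and 0.16 for the difference. Without frozen replicate 2 they were 0.38 for frozen and 0.16 for the difference. On single arrays the median of the 6 genes was 0.33, 0.59 and 0.13 for vitrified replicates 1 to 3 and -0.01, 0.14 and 0.23 for frozen replicates 1 to 3. For 4 genes all 3 vitrified arrays lay on the same side of 0, against a background of 37.3% of tested probes, and for 1 gene all 3 frozen arrays did, against 30.5%. For 1 gene the vitrified and frozen arrays did not overlap, against a background of 10.6%.

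ATF6, the sensor of the set, read higher than control on every array and by nearly the same amount after either treatment. Its log2 ratio was 0.32, 0.46 and 0.12 on the vitrified arrays and 0.23, 0.42 and 0.22 on the frozen ones, in the order of replicates 1 to 3. All 6 values are positive, and the frozen values fall inside the vitrified range. The fitted log2 change was 0.34 ± 0.09 (SE, n = 3 arrays) in vitrified and 0.32 ± 0.09 (SE, n = 3 arrays) in frozen embryos, which is 1.26-fold and 1.25-fold. Their difference of 0.01 ± 0.13 (SE, 3 against 3 arrays) is smaller than its error. The log2 channel level was 7.38 ± 0.13 (SD) over the 6 control channels, 7.67 ± 0.07 (SD, n = 3) in vitrified and 7.68 ± 0.11 (SD, n = 3) in frozen embryos. The lowest treated channel, 7.60, stood above the highest control channel, 7.53, so ATF6 control and treated levels did not overlap. That held for 1 of the 6 genes, against a background of 1.06% of tested probes, and nothing is read from it, since the gene was selected on the same contrast. The 2 treated groups overlap fully.

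PDIA4, a protein disulfide isomerase of the ER lumen, had the largest fitted vitrified value of the 6 genes by brightest probe. By the mean over all probes of a gene CHAC1 was larger, at 0.57, and PDIA4 was at 0.35. On its brightest probe, A_04_P081097, the log2 ratio was 0.69, 1.24 and 0.14 on vitrified replicates 1 to 3 and -0.11, 0.49 and 0.13 on frozen replicates 1 to 3. The 3 vitrified values are positive but range widely, and vitrified replicate 3 lies below frozen replicate 2. The fitted log2 change was 0.80 ± 0.14 (SE, n = 3 arrays), or 1.74-fold, in vitrified and 0.28 ± 0.14 (SE, n = 3 arrays), or 1.21-fold, in frozen embryos. The difference was 0.52 ± 0.19 on the log2 scale (SE, 3 against 3 arrays). Without frozen replicate 2 the PDIA4 value in frozen embryos was 0.42. The neighbouring probe A_04_P081098 read 0.76, 0.91 and 0.15 on the vitrified and -0.03, 0.36 and 0.16 on the frozen arrays, close to the first probe with which it shares 40 bases.

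The control side of PDIA4 was as variable as the treated side. Log2 channel levels spanned 11.35 to 12.14 over the 6 control channels, 12.12 to 12.59 over the vitrified and 11.79 to 12.03 over the frozen ones. Vitrified channels therefore lay above all frozen channels and only just overlapped the controls, where frozen replicate 1 had the highest control value. Vitrified and frozen treated levels did not overlap for 3 of the 6 genes (PDIA4, CHAC1 and P4HB), against a background of 26.3% of tested probes, and nothing is read from that count. The log2 ratios of the same PDIA4 probe do overlap, as given above. Between the arrays that the labels give the same control number, the control level on the vitrified array minus that on the frozen array was -0.71, -0.18 and 0.37 for numbers 1 to 3.

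The upstream cluster of PDIA4 read smaller values. Its 5 probes gave fitted log2 changes of 0.15 to 0.23 in vitrified and -0.13 to -0.09 in frozen embryos, and the difference was 0.28 to 0.33. All 5 were above 0 on all 3 vitrified arrays. On the frozen arrays A_04_P007358 had raw log2 ratios of 0.36, -0.47 and -0.06. Replicate 1 was thus above and replicate 2 below 0, the reverse of the raw downstream values on those arrays. The term for the dye, which is the part of the log2 red over green that does not depend on the treatment, was 0.14 to 0.21 for the upstream probes, but -0.33 and -0.19 for the downstream ones. With the dye term taken out, frozen replicates 1 to 3 read 0.18, -0.29 and -0.24 for A_04_P007358. A_04_P081097 then read 0.21, 0.16 and 0.46, close to the upstream probe on replicate 1 and on the other side of 0 on replicates 2 and 3. The mean over all 7 probes was 0.35 in vitrified and -0.01 in frozen embryos. The fitted frozen values thus differed in sign between the 2 clusters. The upstream ones had SEs of 0.11 to 0.13 and so gave no clear direction. The cause of the difference between the clusters was not tested.

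**Figure D2:**
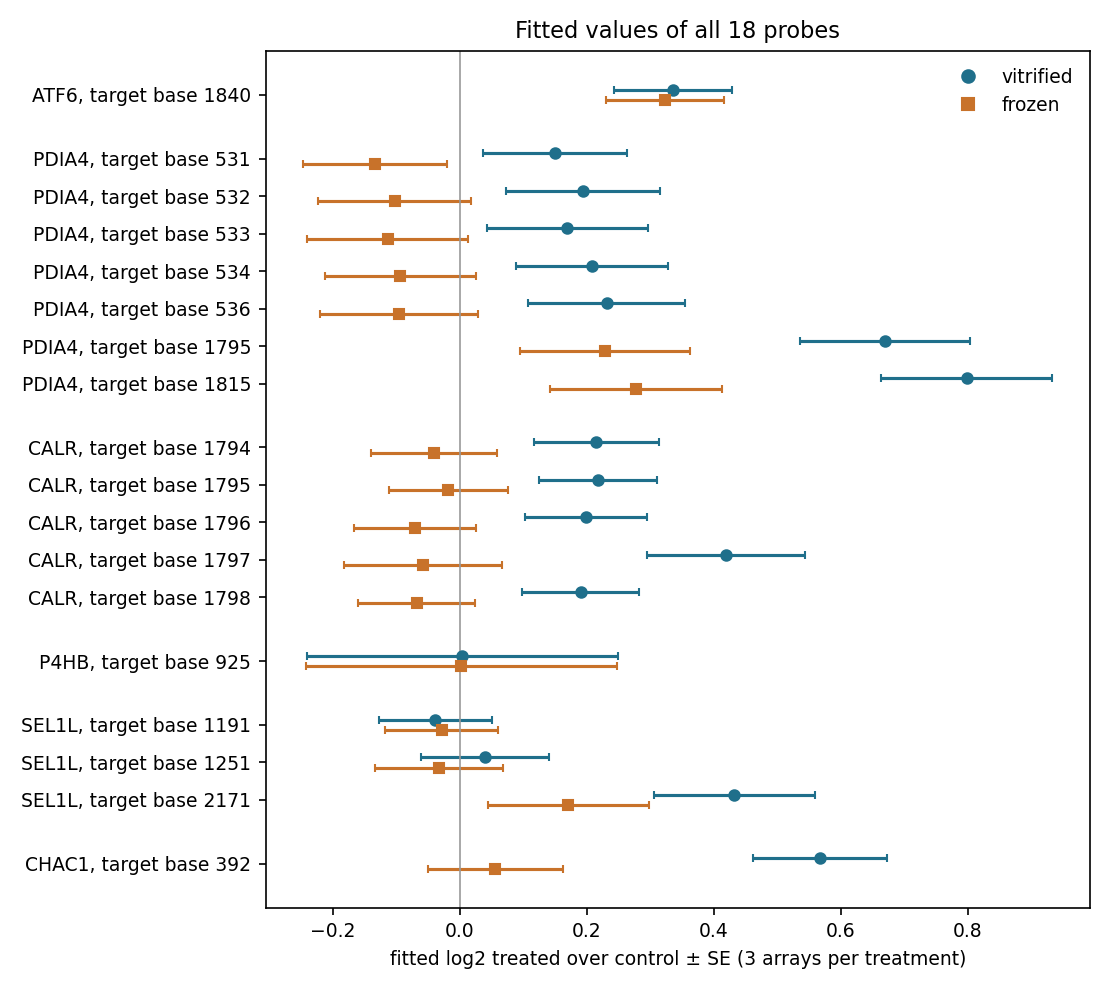
Fitted log2 treated over control ± SE of all 18 probes, with circles for vitrified and squares for frozen embryos. Each line is a probe, labelled by the base of its target transcript at which it begins. PDIA4 probes at bases 1795 and 1815 lie to the right of those at bases 531 to 536 in both treatments, and the SEL1L probe at base 2171 to the right of the 2 other SEL1L probes.

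CALR encodes calreticulin, the soluble lectin chaperone and calcium store of the ER. The dye moved its probes more than either treatment. The brightest, A_04_P000727, had log2 ratios of 0.98, -0.05 and 1.02 on the vitrified and 0.70, -0.98 and 0.81 on the frozen arrays. The dye-swapped replicate 2 is the low value in both groups. Read as red over green, every array was above 0, with 0.98, 0.05, 1.02, 0.70, 0.98 and 0.81 for vitrified 1 to 3 and frozen 1 to 3. The dye term was 0.70 to 0.88 over the 5 CALR probes, and only 0.182% to 0.458% of tested probes had a larger one in size. No CALR spot was saturated on any array. Log2 channel levels of A_04_P000727 spanned 15.98 to 17.24 in control, 16.96 to 17.24 in vitrified and 16.26 to 17.20 in frozen channels, so all 3 groups overlap.

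With the dye term taken out, the CALR values of A_04_P000727 became 0.29, 0.65 and 0.32 for vitrified and 0.00, -0.29 and 0.11 for frozen replicates 1 to 3, and the groups no longer overlapped. In the same way 7 of the 18 probes and 3 of the 6 genes (PDIA4, CHAC1 and CALR) had vitrified and frozen arrays apart, against a background of 20% of tested probes, and nothing is read from it. The PDIA4 gap is narrow, with 0.47 as the lowest vitrified and 0.46 as the highest frozen value. The fitted CALR log2 change was 0.42 ± 0.12 (SE, n = 3 arrays), or 1.34-fold, in vitrified and -0.06 ± 0.12 (SE, n = 3 arrays) in frozen embryos. The other 4 probes, which share 56 bases with it, gave 0.19 to 0.22 and -0.07 to -0.02. Vitrified replicate 2 separates them, since A_04_P000727 read -0.05 there and the others -0.63 to -0.49. Vitrified minus frozen was 0.48 ± 0.17 for the brightest probe and 0.24 to 0.27 for the others. Without vitrified replicate 2 the CALR values of the brightest probe were 0.14 for vitrified and 0.25 for the difference, and without frozen replicate 2 they were 0.23 for frozen and 0.25 for the difference. Within the first slide that CALR difference was 1.12 and within the second -0.32, without a dye term, and the dye swap is unevenly spread over the slides, with a frozen swap on the first and a vitrified swap on the second.

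P4HB, the beta subunit of prolyl 4-hydroxylase and itself a protein disulfide isomerase, had fitted values at 0 with the largest error of the 6 genes. Its log2 ratio was -0.61, 0.53 and -0.01 on the vitrified and -0.37, -0.30 and 0.56 on the frozen arrays. Each group has values on both sides of 0. The fitted log2 change was 0.00 ± 0.24 (SE, n = 3 arrays) in both treatments. Most of the P4HB scatter lay on the control side. The log2 channel level of P4HB ranged over 1.46 units among the 6 control channels, from 10.36 to 11.83, and over 0.45 units among the 6 treated channels. Vitrified channels stood at 11.24 ± 0.03 (SD, n = 3) and frozen ones at 10.92 ± 0.11 (SD, n = 3), and both groups lay inside the control range. For the P4HB control extracts that carry the same number, the vitrified-array level minus the frozen-array level was 0.42, -0.40 and 0.92. Levels of all probes in such control pairs correlated at 0.988 to 0.994 (Pearson, across probes of 2 channels). No such value is given for controls with different numbers, so it does not tell whether an extract was shared.

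**Figure D3:**
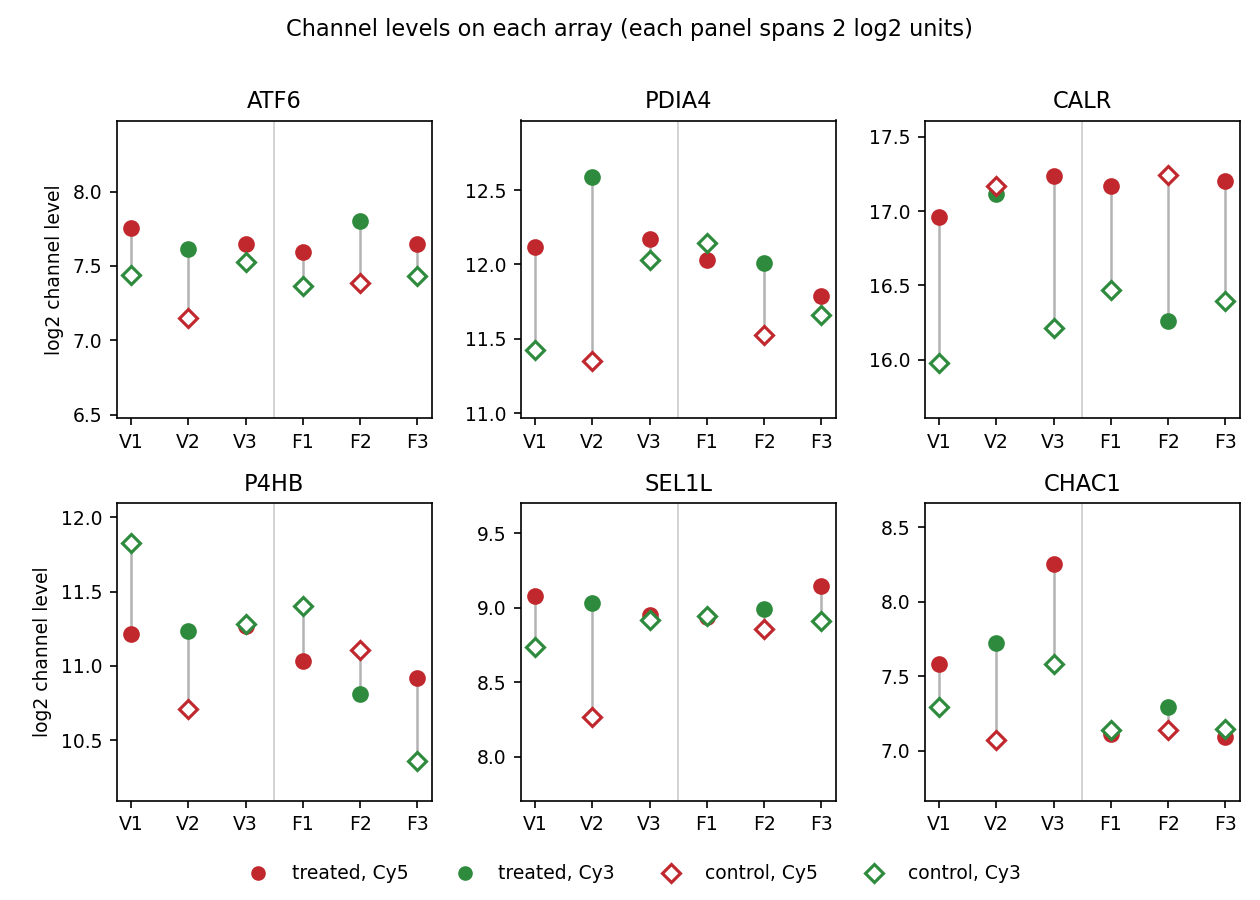
Log2 channel level of the brightest probe of each gene on each array, with vitrified arrays V1 to V3 left and frozen arrays F1 to F3 right of the line, filled circles for the treated and open diamonds for the control extract. Red marks Cy5 and green Cy3, and every panel spans the same 2 log2 units. For CALR the red symbol is above the green one on all 6 arrays, and for P4HB the diamonds spread over 1.46 units while the circles spread over 0.45.

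SEL1L is the membrane adaptor of the HRD1 ubiquitin ligase, which hands misfolded ER proteins to degradation. The brightest probe, A_04_P094742, had log2 ratios of 0.34, 0.77 and 0.04 on the vitrified and -0.01, 0.13 and 0.24 on the frozen arrays. All 3 vitrified values are above 0, but the groups overlap. The fitted log2 change was 0.43 ± 0.13 (SE, n = 3 arrays), or 1.35-fold, in vitrified and 0.17 ± 0.13 (SE, n = 3 arrays), or 1.13-fold, in frozen embryos. Without vitrified replicate 2 the SEL1L value was 0.20 in vitrified embryos, without frozen replicate 2 it was 0.40 in frozen embryos, and either omission left a difference of 0.07. Without frozen replicate 3 it was 0.064 in frozen embryos. The highest vitrified value, that of replicate 2, coincided with the lowest control channel, 8.26, while the other 5 control channels stood at 8.74 or above and vitrified channels at 8.95 to 9.08. The other SEL1L probes did not share the value. A_04_P023862, at base 1191, gave -0.04 in vitrified and -0.03 in frozen embryos, and A_04_P023861, at base 1251, gave 0.04 and -0.03 with a dye term of 0.46. They were well above background in 9 and 10 of the 12 channels respectively, and A_04_P094742 was in 12. The mean over the 3 SEL1L probes was 0.15 in vitrified and 0.04 in frozen embryos.

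CHAC1 encodes a gamma-glutamylcyclotransferase that breaks down glutathione and is induced through ATF4 when stress lasts. It was the gene whose raw vitrified and frozen arrays did not overlap. Its log2 ratio was 0.28, 0.65 and 0.67 on vitrified replicates 1 to 3 and -0.02, 0.15 and -0.05 on frozen replicates 1 to 3. The fitted log2 change was 0.57 ± 0.11 (SE, n = 3 arrays), or 1.48-fold, in vitrified and 0.06 ± 0.11 (SE, n = 3 arrays), or 1.04-fold, in frozen embryos. Vitrified minus frozen was 0.51 ± 0.15 on the log2 scale (SE, 3 against 3 arrays), and the means were 0.22 within the first slide and 0.72 within the second.

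CHAC1 was dim. The treated signal was well above background on all 6 arrays, but that of the control in only 4 of 6, namely 2 of the 3 channels on vitrified and 2 of the 3 on frozen arrays. Log2 levels were 7.58, 7.72 and 8.26 for vitrified, 7.11, 7.29 and 7.09 for frozen, and 7.07 to 7.58 for control channels. The highest control value, 7.58, came from vitrified replicate 3, the array with the highest treated value too. With the log ratio of the scanner software, which has its own background subtraction and dye normalisation, CHAC1 stood at 1.16 in vitrified and 0.20 in frozen embryos, and ATF6 at 0.57 and 0.60. A normexp offset of 16 in place of 50, with the rest kept, gave 0.71 and 0.08 for CHAC1 and 0.43 and 0.40 for ATF6. Which step of the scanner software moved them further was not tested.

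Other genes of the pathway were centred near 0. Lists of 134 further genes were drawn up, 82 of them had a tested probe, and 0 of the 82 were called in vitrified over control, frozen over control or the difference (limma, Benjamini-Hochberg over all tested probes). At an unadjusted p below 0.05 (limma) there were 16, 14 and 13 of the 82, beside 17.4%, 13.2% and 7.54% of all tested probes. The share of the 82 was thus above that of all tested probes, most so for the difference. The lists were chosen with earlier results of these data known, so nothing is read from these counts. Their median log2 value was 0.00 for vitrified, 0.02 for frozen and 0.03 for the difference, with 40, 45 and 47 of 82 above 0. All tested probes had medians of 0.01, 0.01 and 0.02.

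Of 15 listed ER chaperones 8 were measured, with medians of 0.02 in vitrified and 0.01 in frozen embryos, and 5 were above 0 in each. HSPA5, the lumenal chaperone BiP and a standard readout of the response, stood at 0.00 in vitrified and 0.18 in frozen embryos. HSP90B1 (GRP94) was at 0.29 and -0.13, CANX, the membrane-bound partner of calreticulin, at 0.05 and 0.24, and DNAJB9, a co-chaperone of BiP, at -0.09 and -0.10. Of 14 disulfide enzymes 10 were measured, with medians of -0.05 and -0.03. PDIA3, which works with calreticulin and CANX, was at 0.21 and 0.04, PDIA6 at -0.26 and -0.40, and ERO1A, which oxidises the isomerases, at -0.41 and -0.34. In vitrified embryos PDIA6 and ERO1A were thus below 0, where all 7 PDIA4 probes were above it.

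Among the sensors and their factors 8 of 14 were measured, with medians of -0.03 in vitrified and 0.08 in frozen embryos, and 2 and 8 of them were above 0. ERN1, the sensor IRE1, was at 0.00 and 0.08 and EIF2AK3 at -0.03 and 0.11. MBTPS2, the protease that makes the last cut in ATF6, was at -0.14 and 0.19. XBP1, ATF4, ATF6B, MBTPS1 and DDIT3 were not measured here under a symbol. RNA levels do not report the cutting, splicing or phosphorylation by which these sensors act.

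In vitrified embryos the widest spread was among targets of ATF4 and DDIT3, to which CHAC1 belongs, with 15 of 25 measured and medians of 0.17 in vitrified and -0.15 in frozen embryos. Of these, 10 were above 0 in vitrified, 5 in frozen and 12 in the difference. The high end was held by PSAT1 (1.52 and -0.25) and PHGDH (1.00 and -0.30), which make serine, SLC7A5 (0.81 and 0.16), an amino acid carrier, and SHMT2 (0.74 and 0.29), which passes on the carbon unit of serine. These were named after their values were seen, and the smallest adjusted p of the list in limma was 0.144 for vitrified over control. DDIT4 (-0.38 and -0.45), ATF3 (-0.07 and -0.24) and VLDLR (-0.43 and -0.16), also on the list, were below 0 in both. As for CHAC1, raw vitrified and frozen arrays did not overlap for PSAT1, PHGDH, SHMT2, CEBPG and WARS1. They overlapped for the other measured genes of the list, and the background of no overlap is 10.6% of tested probes.

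In ER-associated degradation, the pathway of SEL1L, 18 of 27 were measured, with medians of 0.04 in vitrified and 0.06 in frozen embryos. DERL1 was at 0.29 and 0.07 and DERL2 at 0.28 and 0.09, both channel proteins of the SEL1L complex, HERPUD1 at -0.10 and 0.04, and the extracting ATPase VCP at 0.12 and 0.09. SYVN1, which encodes HRD1, OS9 and EDEM1 were not measured here under a symbol. For translocation and N-glycosylation 14 of 28 were measured, with medians of 0.05 and 0.05, and SEC61A1, the channel for entry into the ER, was at -0.16 and 0.17. Of 11 collagen hydroxylases and partners of P4HB 9 were measured, with medians of -0.17 and -0.33, and 1 of the 9 was above 0 in each treatment. P4HA1 (-0.34 and -0.27) and P4HA2 (-0.34 and -0.61), the catalytic subunits that P4HB binds, and MTTP (-0.34 and -0.43), the lipid transfer protein that it also binds, were all below 0. P4HB was at 0.00 ± 0.24 (SE, n = 3 arrays) in both, a wide error, and its difference from these partners was not tested. None of the genes named here passed the test of treated over control.

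**Figure D4:**
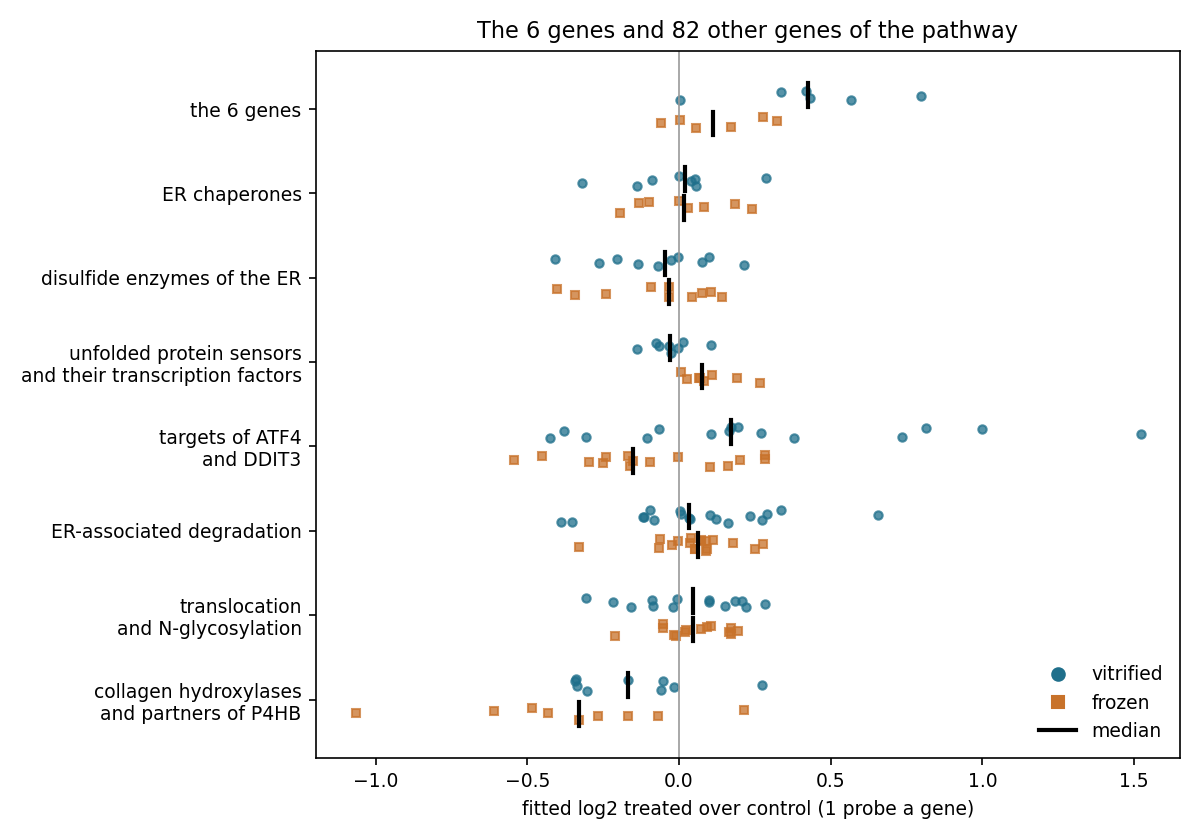
Fitted log2 treated over control of the 6 genes and of 82 other measured genes in 7 lists, with circles for vitrified, squares for frozen and black bars for medians. The 6 genes were selected on these values. The lists centre near 0, the targets of ATF4 and DDIT3 reach 1.52 in vitrified embryos, and the collagen list has its median at -0.33 in frozen embryos.

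The array pattern of each gene was set beside that of 8102 other genes by Pearson's r of the 6 log2 ratios. This is a description, since the 6 arrays share dyes, slides and, by the labels, control numbers. PDIA4 was most like MRPL14 (r = 0.999), TRIM28 (r = 0.993) and GYS1 (r = 0.99), and 177 genes reached an r above 0.9. CALR was most like CCDC150 (r = 0.997), AVPR2 (r = 0.994) and CRYGN (r = 0.994), also with 177 genes above 0.9. CHAC1 was nearest to DDX25 (r = 0.986), SEL1L to PXMP4 (r = 0.995), ATF6 to PLP2 (r = 0.982) and P4HB to INTS15 (r = 0.98), with 89, 66, 59 and 49 genes above 0.9. None of the nearest 3 genes of any of the 6 was a member of the pathway lists.

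Markers of other cell types also differed between arrays, and their part in the values above was not tested. In bulk RNA, fewer cells of a type and less RNA per cell cannot be told apart. The 7 trophectoderm markers had median log2 ratios of 0.15, 0.71 and 0.05 on vitrified and 0.09, 0.12 and 0.26 on frozen replicates 1 to 3. These raw ratios were highest on vitrified replicate 2, a dye-swapped array, as were those of PDIA4, SEL1L and ATF6. With the dye term taken out, PDIA4 and ATF6 were highest on vitrified replicate 1, at 1.02 and 0.43, beside 0.91 and 0.35 on replicate 2. SEL1L stayed highest on replicate 2, at 0.62. Corrected in the same way, the trophectoderm markers were divided. GATA2 and TFAP2A were highest on vitrified replicate 1, at 1.03 and 1.05. KRT8 and KRT19 were highest on vitrified replicate 2, at 0.75 and 0.47, and GATA3, TFAP2C and ELF3 on a frozen array. The 4 measured epiblast markers had medians of 0.24, -0.19 and 0.32 on the vitrified and -0.38, -0.68 and -0.13 on the frozen arrays. The 9 endoderm markers had medians of -0.62, 0.10 and 0.33 on the vitrified and -0.97, -0.71 and -0.87 on the frozen arrays, and APOA2 was called lower in frozen embryos (adjusted p = 0.0424, limma). The 4 measured blood markers of 10 listed had medians of 0.94, 1.94 and 1.53 on the vitrified and 1.51, 0.24 and 0.22 on the frozen arrays. The 4 measured uterine markers of 6 listed had medians of 0.04, 0.94 and 0.33 and of 0.12, 0.46 and 0.13.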

How the data were processed

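The deposited files hold, per the file headers, the intensity of each spot in both channels (mean of its pixels) with the median local background, neither of them normalised. They also hold a log10 ratio, red to green, which per the file headers had its background subtracted and its dyes normalised by the scanner software. The submitters' processing notes name Agilent Feature Extraction 10.10.1.1. Here the deposited intensities went through normexp with an offset of 50 (limma 3.58.1, R 4.3.3) and then loess within arrays, in which control and outlier spots had weight 0. Channel levels are log2 values after Aquantile normalisation. A probe was tested, as were 30763 of 43603, if 3 or more of the 12 channel measurements were flagged well above background. Of all probes, 21488 matched 1 gene symbol, through the files' own columns and a RefSeq gene table of assembly mOryCun1.1, 350 matched several genes and 20497 none. The fit over all 6 arrays had a coefficient for each treatment and a dye term, with 3 residual degrees of freedom, followed by eBayes and Benjamini-Hochberg adjustment over all tested probes. Replicates of a treatment are separate samples by the labels, and p-values measure the spread between arrays. The fit treated the 6 ratios as independent, although vitrified and frozen arrays are read as sharing controls. A replicate block was run as an alternative. The fit was tested on simulated data.

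The 6 genes and all lists were chosen with earlier results of these data known. Each gene is named by its brightest probe with the range of the others, and 18 of 34 other pathway genes chosen to be named were measured. Background correction, normalisation, the dim-probe filter, the dye term, slide, replicate block, eBayes setting, probe choice and each array were varied.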

Additional observations from a re-analysis of the deposited data

Results flagged for a closer look

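MBTPS2, the protease that makes the last cut in ATF6, is singled out because its vitrified and frozen arrays lay on opposite sides of 0. Its log2 ratio was -0.18, -0.17 and -0.06 on vitrified replicates 1 to 3 and 0.33, 0.22 and 0.03 on frozen replicates 1 to 3. Vitrified minus frozen was -0.33, and the test of that difference did not pass (adjusted p = 0.655, limma). Of the tested probes 769, or 2.5%, had arrays on opposite sides in this way, and only 24 genes were examined for it. The pattern is not particular to MBTPS2. Among other genes of the pathway lists, PSAT1, WARS1 and SSR1 lay on opposite sides too, with differences of 1.77, 0.42 and -0.38. No group had enough arrays for a test of single outlying samples.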

How the results depend on the processing

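With 3 arrays per treatment the error of each value is wide, and none of the 18 probes was called under any of the 17 other settings that tested it. CHAC1 and 2 SEL1L probes were not tested with probes well above background in all 12 measurements, and the fixed replicate block gives the difference only. Probes called in vitrified over control, 6 as reported, were 0 with the log ratio of the scanner software, 0 with probes well above background in all 12 measurements and 0 with slide as a covariate, and 0 to 16 when 1 array was left out. Probes called in frozen over control, 57 as reported, were 3 at an offset of 16, 1 with the log ratio of the scanner software, 33 with median centring only, 8 without a dye term and 0 with slide as a covariate, and 0 to 513 when 1 array was left out, the highest without vitrified replicate 1. Vitrified minus frozen stayed at 0 calls in all settings. The cause was not tested. The median of the 6 genes stayed above 0, at 0.26 to 0.57 for vitrified, 0.02 to 0.38 for frozen (0.064 to 0.375 when 1 array was left out, the highest without frozen replicate 2) and 0.16 to 0.44 for the difference. With the mean over all probes of a gene these were 0.29, 0.02 and 0.20. Of 291 alternative values of single genes 284 moved by less than 1 SD, 7 moved further and 29 changed sign, 20 of these for P4HB. A move of less than 1 SD could still be large. In vitrified over control PDIA4 went from 0.80 to 0.35 with the mean over all its probes. CALR went from 0.42 to 0.14 there without vitrified replicate 2. The numbers that arrays share in the labels pair the control extracts but not the treated ones. Deviations of arrays with the same number correlated at 0.02, 0.59 and 0.17. For number 2 both arrays are dye-swapped, so a shared dye effect and a shared control cannot be told apart there. A random replicate block had a correlation of -0.10 and left 8 and 61 calls for vitrified and frozen. The fit with a fixed replicate block gave 0 calls for the difference.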
